A study of Homo sapiens with 4 samples.

Results

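Numbered zinc finger genes, those whose symbol is ZNF followed by digits alone, were examined in HaCaT cells, an immortalised human keratinocyte line, after a cytokine mix and after its vehicle. The genes described are the 178 whose level averaged at least 1.5 FPKM over the 4 libraries, out of 433 numbered ZNF genes and 27356 genes with an entry, and ZNF750 was left out. FPKM is the fragment number divided by gene length and by the size of the library. The genes were thus selected on their mean FPKM, so their levels are given as a description. For 13 of the 178 the mean of one treatment was itself under 1.5 FPKM, so that those genes were included through the other treatment. Of these 13, 1 was called higher in M5 and 5 lower, and since a gene included in this way tended to differ, those 6 calls carry no weight as a result about the family.

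The 2 M5 libraries came from HaCaT cells given IL-1α, IL-17, IL-22, TNF-α and oncostatin M at 10 μg/L each for 72 h, and the 2 PBS libraries from cells given phosphate-buffered saline, with a plating density of 50% in both. Groups were read from the titles. In the treatment field, both M5 libraries carry 25 μM of an agent abbreviated DAC, whereas the protocol and the series description name M5. Whether replicates came from separate cultures is not in the labels, so p-values here reflect library-to-library spread that may be technical.

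C2H2 zinc finger proteins form the largest family of transcription factors in humans. Each finger holds a zinc ion between a pair of cysteines and a pair of histidines and reads a few bases of DNA. Many members carry a KRAB box, which binds TRIM28 (KAP1) and through it brings in SETDB1, a histone H3 lysine 9 methyltransferase, together with HP1 proteins and the NuRD deacetylase complex, and so silences the bound site. Many KRAB genes lie in clusters on chromosome 19 and arose by tandem duplication, while others of the family, without the box, act in transcription activation, RNA processing or ribosome assembly.

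The libraries held 18992988 and 19749612 counts with M5, against 15858644 and 16051974 with PBS. Keratinocyte markers were detected in each library, 10 of 10, with a summed level of 6267 and 5971 FPKM in M5 against 4322 and 4278 FPKM in PBS. KRT5 differed from the sum, with 363 and 336 FPKM in M5 against 760 and 753 FPKM in PBS. Every other marker on the keratinocyte list was higher in both M5 libraries than in either PBS library. Marker sums of fibroblasts, endothelium, melanocytes and Merkel or neural cells were at most 0.731 FPKM in any library. The leukocyte sum was 4.66 and 5.12 FPKM in M5 against 2.34 and 1.55 FPKM in PBS and was almost wholly CD14, and PTPRC and LYZ had no entry. S100A9, an antimicrobial protein gene of the cytokine response, had 4526 and 5292 FPKM in M5 against 2.75 and 3.70 FPKM in PBS.

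Of the 178 ZNF genes, 23 were higher in M5 and 33 were lower, and 122 did not pass the test. The test was edgeR's quasi-likelihood test on the counts with TMM scaling, which sets libraries to a common scale through the genes that change least, and a gene counted as called when its Benjamini-Hochberg adjusted p over 10809 tested genes was under 0.05. Among the tested genes 55.9% were called, 28.8% higher and 27.1% lower, whereas 31.5% of the ZNF genes were called. A called change of at least 2-fold was found for 6 ZNF genes (3.37%), against 9.61% of the tested genes. The median log2 fold change, M5 over PBS, was −0.04 for the ZNF genes and −0.01 for the tested genes. The middle 50% of ZNF genes spanned 0.377 on this log2 scale, against 0.586 for the tested genes, so the ZNF genes lay closer to 0. In bulk RNA, fewer cells with a transcript and less of it per cell cannot be told apart.

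**Figure D1:**
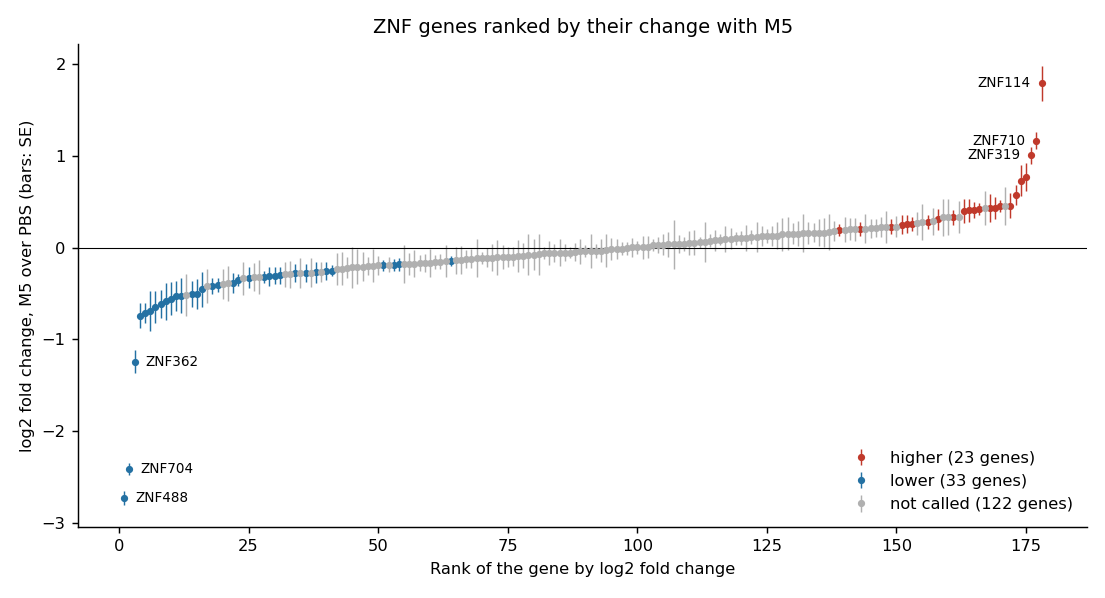
Log2 fold change (M5 over PBS, edgeR with TMM scaling; bars, SE) of the 178 ZNF genes in order of size, coloured by whether the gene was called higher (23), lower (33) or not called (122). Most points lie near 0, and 3 genes at each end, named in the plot, changed at least 2-fold.

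The number of calls in each direction depended on how the libraries were put on one scale, while no called ZNF gene changed sign between the scalings. Fitted changes with TMM exceed those of the deposited FPKM by a median of 0.15 on the log2 scale. With library totals in place of TMM, 10 ZNF genes were higher and 63 lower, where 20.4% of the tested genes were higher and 41.3% lower. With TPM scaling, which sets the sum of length-scaled counts equal in each library, 9 were higher and 71 lower, where 18.8% of the tested genes were higher and 43.8% lower. For the ZNF genes the median change was −0.19 on the log2 scale with library totals and −0.22 with TPM scaling, beside −0.16 and −0.19 for the tested genes. Called in the same direction with each of the 3 scalings were 9 higher genes (ZNF114, ZNF710, ZNF319, ZNF513, ZNF165, ZNF503, ZNF219, ZNF217 and ZNF121) and the 33 lower ones. Library totals and TPM scaling place fold changes lower than TMM by construction. Lower calls were therefore apt to hold, and that all 33 did is no check on the falls. The summed level of the 178 genes was 898 and 878 FPKM in M5 against 1030 and 1026 FPKM in PBS. After TMM scaling the same sums were 959 and 932 in M5 against 987 and 985 in PBS, and without ZNF488 and ZNF704 they were 951 and 925 in M5 against 941 and 938 in PBS, where M5 replicate 1 exceeded both PBS libraries and M5 replicate 2 lay under both.

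**Figure D2:**
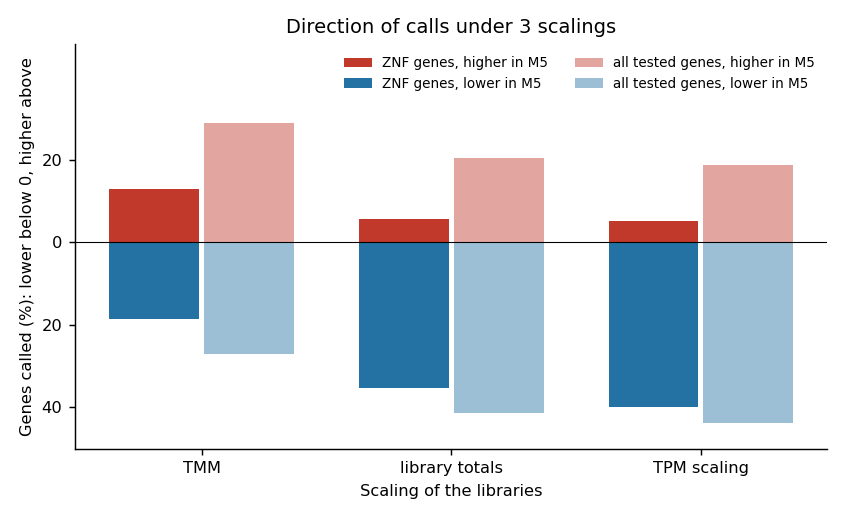
Share of genes called higher (above 0) and lower (below 0) in M5 with TMM, library totals and TPM scaling, for the 178 ZNF genes (left bar of each pair) and for the 10809 tested genes (right bar). The ZNF genes have shorter bars than the tested genes at each scaling, and lower calls outnumber higher ones most with TPM scaling, 71 against 9.

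The 6 genes that changed at least 2-fold carry different numbers of fingers, counted by a pattern search in the coding sequence. ZNF488 has 2, ZNF704 has 1, ZNF362 has 6, ZNF114 has 4, ZNF710 has 11 and ZNF319 has 12, and of these genes ZNF114 alone has a KRAB box. The coding bases of one finger of 5 of these genes, ZNF114, ZNF710, ZNF319, ZNF362 and ZNF488, with the codons of the cysteine pair and the histidine pair in capitals, show the unit that defines the family. They are taken from GENCODE 29 on GRCh38 and read along the coding strand, at chr19:48286540-48286602 (+) for ZNF114, chr15:90068026-90068088 (+) for ZNF710, chr16:57997804-57997866 (−) for ZNF319, chr1:33281588-33281650 (+) for ZNF362 and chr10:47367936-47368001 (−) for ZNF488. In ZNF488 the codon just before the last capitals, cac, also encodes histidine, and the pattern search marked the later codon. Which of them completes the pair was not tested.
ZNF114: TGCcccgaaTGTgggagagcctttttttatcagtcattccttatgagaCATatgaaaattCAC
ZNF710: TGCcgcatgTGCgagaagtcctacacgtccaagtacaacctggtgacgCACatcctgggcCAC
ZNF319: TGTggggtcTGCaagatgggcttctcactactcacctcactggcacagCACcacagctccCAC
ZNF362: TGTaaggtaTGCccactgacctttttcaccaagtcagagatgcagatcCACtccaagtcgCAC
ZNF488: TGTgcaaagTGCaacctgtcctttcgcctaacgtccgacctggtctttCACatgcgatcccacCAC

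ZNF488, whose mouse counterpart promotes oligodendrocyte differentiation together with Olig2, showed the largest change of the 178. It lies at chr10:47365496-47384273 on the minus strand and overlaps no other annotated gene. Its level was 5.14 and 4.61 FPKM in M5 against 35.8 and 35.9 FPKM in PBS, which made it the most abundant of the 178 in both PBS libraries. The groups stood far apart, at −2.73 on the log2 scale (SE 0.0754, edgeR adjusted p = 3.77e-16).

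ZNF704 (chr8:80628451-80874781, minus strand) is a relative of ZNF395, and 4 other annotated genes overlap it. It had 2.27 and 2.02 FPKM in M5 against 12.6 and 12.8 FPKM in PBS. Each M5 library lay under each PBS library, and the gene changed by −2.42 on the log2 scale (SE 0.0686; edgeR adjusted p = 6.01e-16). ZNF395, which has been described as a factor induced by hypoxia, also fell, with 5.38 and 5.32 FPKM in M5 against 8.25 and 7.57 FPKM in PBS and a log2 fold change of −0.41 (edgeR adjusted p = 0.000543). Both relatives thus moved in the same direction by different amounts.

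ZNF362 (chr1:33256545-33300719, plus strand) is a relative of ZNF384, and both are related to the Drosophila genes rotund and squeeze. It had 3.80 and 3.07 FPKM in M5 against 8.87 and 9.19 FPKM in PBS, and the log2 fold change was −1.24 (SE 0.125, edgeR adjusted p = 8.34e-08). For ZNF384 the levels were 7.92 and 6.40 FPKM in M5 against 8.60 and 8.73 FPKM in PBS, and its log2 fold change of −0.13 did not pass the test (edgeR adjusted p = 0.291).

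ZNF114 (chr19:48270102-48287608, plus strand), a KRAB gene, had the largest positive log2 fold change. It had 3.69 and 3.85 FPKM in M5 against 1.19 and 1.22 FPKM in PBS, and its change was 1.79 on the log2 scale (SE 0.191). Its PBS mean lay under 1.5 FPKM, so ZNF114 met the level for inclusion through the M5 libraries, in which it is higher, and its values are given as a description. ZNF710 (chr15:90001392-90082206, plus strand) had 8.51 and 8.04 FPKM in M5 against 3.97 and 4.21 FPKM in PBS, which is 1.17 on the log2 scale (SE 0.0962; edgeR adjusted p = 5.34e-09). In both genes each M5 library exceeded each PBS library.

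ZNF319 (chr16:57994668-58000453, minus strand) had 7.86 and 7.87 FPKM in M5 against 4.29 and 4.399 FPKM in PBS, and its log2 fold change was 1.01 (SE 0.0938, edgeR adjusted p = 3.13e-08). It overlaps USB1, a U6 small nuclear RNA processing enzyme gene on the opposite strand. USB1 had 14.9 and 14.9 FPKM in M5 against 8.27 and 8.54 FPKM in PBS, with a log2 fold change of 0.98 (edgeR adjusted p = 8.24e-11). Libraries were made with a kit without strand marking, and reads from the stretch shared by both genes cannot be assigned to either. Of the 178 ZNF genes 37 overlap another tested gene, among them 10 of the 56 called. An overlapping gene called in the same direction was found for 2 of these 10, ZNF319 with USB1 and ZNF740 with CSAD, and one called in the opposite direction for 0 of the 10.

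**Figure D3:**
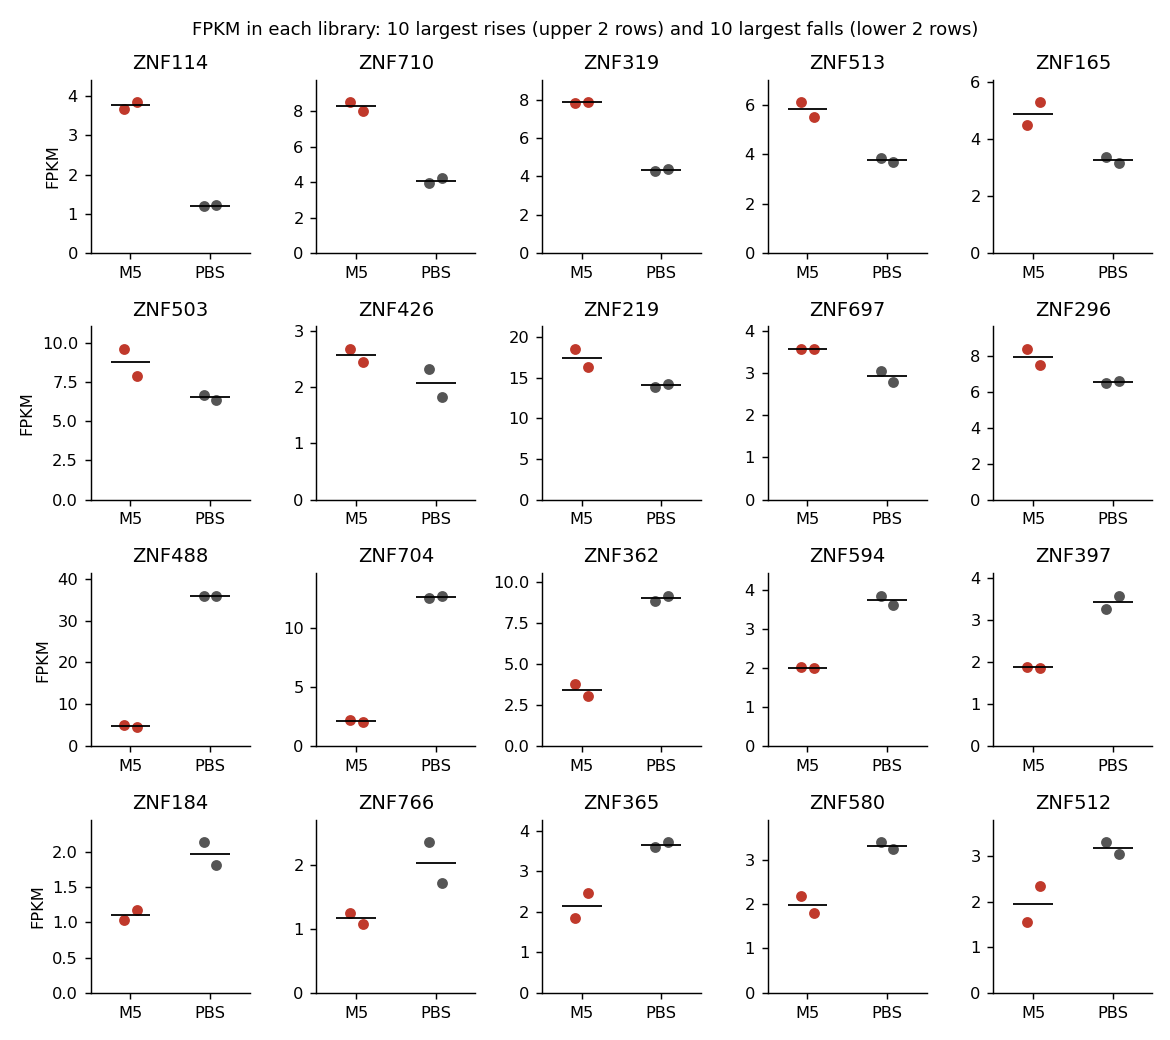
FPKM in each library for the 10 largest rises (upper panels) and the 10 largest falls (lower panels) among called ZNF genes, with M5 left of PBS in each panel, points for libraries and lines for group means. Each axis starts at 0 and has its own range. ZNF488 sits near 5 FPKM in M5 and near 36 FPKM in PBS, while most other panels show changes of less than 2-fold.

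After these 6, the changes were smaller. ZNF513, a gene mutated in an inherited retinal degeneration, rose with a log2 fold change of 0.77, from levels of 6.11 and 5.53 FPKM in M5 against 3.86 and 3.71 FPKM in PBS. ZNF513 overlaps SNX17 on the opposite strand, which had 30.1 and 31.01 FPKM in M5 against 35.7 and 34.9 FPKM in PBS. ZNF165, a SCAN-box gene known as a cancer-testis antigen, rose with a log2 fold change of 0.73, at 4.48 and 5.30 FPKM in M5 against 3.36 and 3.17 FPKM in PBS. ZNF219 had 18.5 and 16.3 FPKM in M5 against 13.9 and 14.3 FPKM in PBS (log2 fold change 0.46), and no M5 library of ZNF513, ZNF165 or ZNF219 overlapped a PBS library.

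ZNF426, a KRAB gene, had a log2 fold change of 0.46, ZNF697 of 0.44 and ZNF296, whose mouse counterpart is a partner of Klf4 in reprogramming, of 0.43. ZNF426 and ZNF296 were not called with library totals or TPM scaling, and ZNF697 was called with library totals and not with TPM scaling. Each also lost its call when 1 library was left out. Without PBS replicate 2 the edgeR adjusted p was 0.143 for ZNF426, 0.0587 for ZNF697 and 0.0738 for ZNF296, and for ZNF296 it was 0.107 without M5 replicate 1 and 0.0943 without PBS replicate 1.

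Among the falls, ZNF594, with 21 fingers, had 2.03 and 2.00 FPKM in M5 against 3.85 and 3.61 FPKM in PBS (log2 fold change −0.74, edgeR adjusted p = 0.000128). ZNF397, a SCAN-box protein found at centromeres, had 1.90 and 1.87 FPKM in M5 against 3.26 and 3.59 FPKM in PBS (log2 fold change −0.71, edgeR adjusted p = 1.68e-05). ZNF365, a protein of genome stability in which the search found 0 fingers, had 1.85 and 2.46 FPKM in M5 against 3.60 and 3.72 FPKM in PBS, with a log2 fold change of −0.61. For these 3 genes the M5 libraries lay wholly under the PBS libraries.

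The KRAB genes ZNF184 and ZNF766 had log2 fold changes of −0.69 and −0.65, and ZNF580 and ZNF512, without the box, of −0.59 and −0.56. ZNF184 and ZNF766 had an M5 mean under 1.5 FPKM and were included through PBS. Each of these 4 calls was lost when one or another library was left out. ZNF184 had a log2 fold change of −0.60 without M5 replicate 1 (edgeR adjusted p = 0.0541) and −0.57 without PBS replicate 1 (0.0987), and ZNF766 had −0.40 without PBS replicate 1 (0.1302). ZNF580 had −0.44 without M5 replicate 2 (edgeR adjusted p = 0.107) and −0.55 without PBS replicate 1 (0.0720), and ZNF512 had −0.29 without M5 replicate 1 (0.177) and −0.50 without PBS replicate 1 (0.0516). Of the 56 calls, 10 higher and 14 lower held when each library was left out in turn.

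Calls were set against other tested genes of the same level. Between 1.5 and 3 FPKM, 26.3% of 76 ZNF genes were called, against 45.4% of 1656 other tested genes. Between 3 and 6 FPKM the shares were 17.0% of 47 ZNF genes and 54.1% of 2056 others, and between 6 and 12 FPKM 43.2% of 37 ZNF genes and 58.9% of 2275 others. At 12 FPKM and over, up to the most abundant ZNF gene, 66.7% of 18 ZNF genes and 65.0% of 2220 others were called. The median count behind a gene was 200 for ZNF genes and 192 for others in the lowest bin, 342 and 448 in the next, 717 and 836 in the third and 1550 and 1575 in the highest. No test was made of these differences, since the genes in a bin are not replicates.

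**Figure D4:**
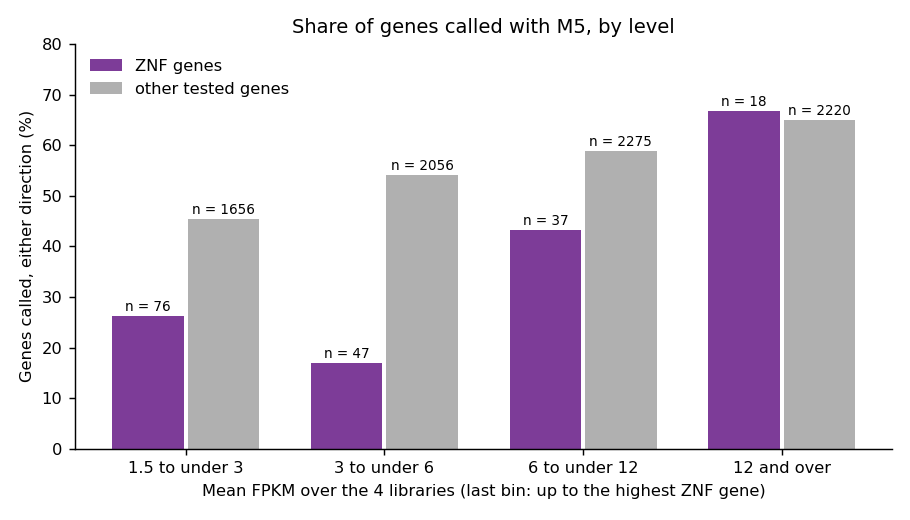
Share of genes called in either direction (edgeR adjusted p under 0.05) by mean FPKM, for ZNF genes (left bar of each pair) and other tested genes (right bar), with the number of genes above each bar. The ZNF bar is lower in the 3 lower bins, 17.0% against 54.1% between 3 and 6 FPKM, and 66.7% against 65.0% were called in the highest bin.

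Apart from ZNF488, the 6 most abundant ZNF genes had log2 fold changes between −0.19 and 0.28. ZNF622, which acts in the maturation of the large ribosomal subunit, led with 31.1 and 32.9 FPKM in M5 against 28.3 and 30.1 FPKM in PBS. Its log2 fold change of 0.28 was called (edgeR adjusted p = 0.00423), but not without PBS replicate 1 (edgeR adjusted p = 0.0682), with library totals (0.154) or with TPM scaling (0.266). ZNF664 had 20.8 and 19.9 FPKM in M5 against 25.1 and 26.5 FPKM in PBS (log2 fold change −0.19). ZNF106, an RNA-binding protein, had 19.5 and 18.1 FPKM in M5 against 22.5 and 23.6 FPKM in PBS (log2 fold change −0.14).

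ZNF282, a KRAB protein first described as a repressor of a human T-cell leukaemia virus promoter, had 21.6 and 18.8 FPKM in M5 against 19.01 and 19.9 FPKM in PBS. These levels overlap, and the log2 fold change of 0.20 was called with TMM and not with library totals or TPM scaling. ZNF146, which consists almost wholly of fingers, had 16.2 and 16.05 FPKM in M5 against 19.6 and 21.1 FPKM in PBS (log2 fold change −0.19). Without PBS replicate 2 the edgeR adjusted p was 0.184 for ZNF664, 0.351 for ZNF106 and 0.280 for ZNF146. ZNF106 was also lost without M5 replicate 2 (0.133) and PBS replicate 1 (0.101), and ZNF282 without M5 replicate 1 (0.213) and PBS replicate 1 (0.148).

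Just above the level that decided inclusion, ZNF160 had 1.45 and 1.59 FPKM in M5 against 1.56 and 1.46 FPKM in PBS, and ZNF248 had 1.36 and 1.24 FPKM in M5 against 1.88 and 1.61 FPKM in PBS. Just below it, ZNF653 averaged 1.50 FPKM over the 4 libraries, under 1.5 before rounding, and ZNF283 averaged 1.49 FPKM. Further down, 57 numbered ZNF genes averaged under 0.1 FPKM, 82 from 0.1 to 0.5 and 115 from 0.5 to 1.5.

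A KRAB box was found in 72 of the 178 genes and not in 106. Of the KRAB genes 7 were higher and 10 lower, with a median log2 fold change of −0.02, and of the genes without the box 16 were higher and 23 lower, with a median of −0.05. Both medians lie near that of the tested genes, −0.01. With the box 23.6% were called and without it 36.8%, against 55.9% of the tested genes. The summed TMM-scaled level of the KRAB genes was 273 and 271 in M5 against 271 and 269 in PBS, so that the libraries differed by little. A SCAN box, a dimerisation domain, was found in 13 genes, of which ZNF165 was higher, ZNF397 and ZNF18 were lower and 10 were not called.

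Chromosome 19 holds 54 of the 178 genes, and 6 of them were higher and 6 lower (22.2% called, against 55.9% of the tested genes). Their median change was 0.09 on the log2 scale and turned to −0.06 with library totals and −0.09 with TPM scaling. On the other chromosomes 17 of 124 were higher and 27 lower, with a median of −0.08. The 32 chromosome 19 genes with a KRAB box had a median of 0.13, with 4 higher and 3 lower, and that median was −0.02 with library totals. Chromosome 16 held 19 genes with 2 higher and 1 lower, and chromosome 7 held 16 with 3 higher and 2 lower.

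**Figure D5:**
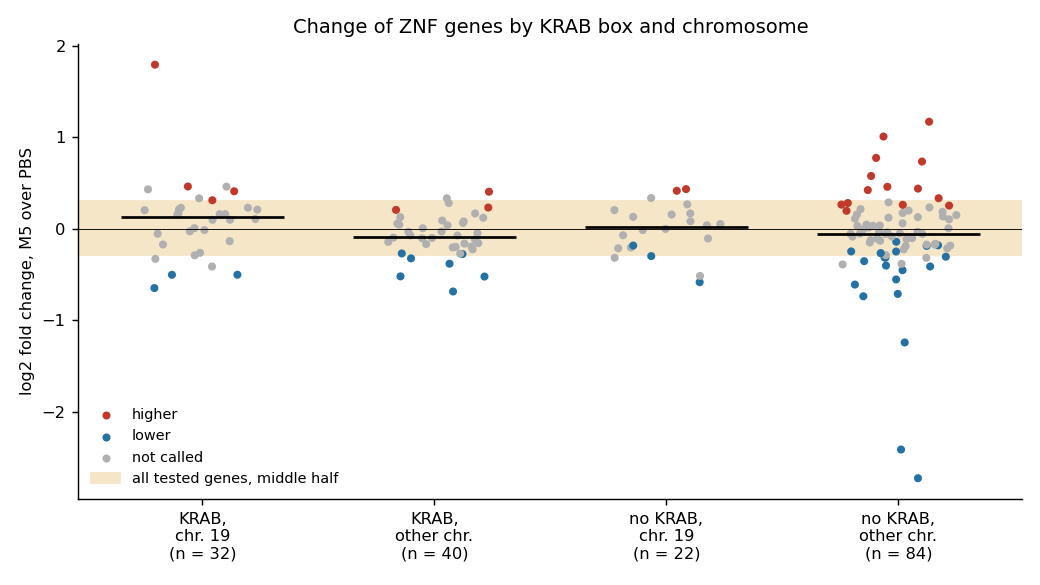
Log2 fold change (M5 over PBS, TMM scaling) of ZNF genes by KRAB box and chromosome, each point a gene coloured by its call, with lines at the class medians and a band over the middle 50% of tested genes. Most points of each class lie within the band, ZNF114 stands at the top of the chromosome 19 KRAB class, and the falls of over 2-fold lie in the class with neither feature.

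By number of fingers, 18 of the 39 genes with 0 to 4 fingers were called (6 higher, 12 lower, 46.2%), and 4 of the 33 genes with 15 or more (1 higher, 3 lower, 12.1%). The classes with 5 to 9 and 10 to 14 fingers lay between, at 32.8% of 61 and 31.1% of 45. Of the tested genes 55.9% were called. Level moved with finger number, since the median level was 6.46 FPKM for genes with 0 to 4 fingers and 2.68 FPKM for those with 15 or more, and its part in the result was not tested. ZNF407, with 23 fingers, was the called gene with the most. It had 2.58 and 2.47 FPKM in M5 against 2.58 and 2.13 FPKM in PBS, with a log2 fold change of 0.25 that was not called without M5 replicate 1 (edgeR adjusted p = 0.122) or PBS replicate 2 (0.495), nor with library totals or TPM scaling.

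Fingers repeat between genes, so reads can match several of them. A median of 5.88% of the 31-base words in the transcripts of a ZNF gene also occurred in transcripts of other genes, with a maximum of 63.3%. Of the 28 genes with at least 20% shared words, 1 was higher and 4 were lower, and of the 77 genes with under 5% shared words 12 were higher and 15 lower. The shares called were 17.9% and 35.1%, against 55.9% of the tested genes. Among the largest changes the shared part was 0% for ZNF488, 0.293% for ZNF704, 0.0301% for ZNF362, 2.57% for ZNF319, 8.51% for ZNF114 and 15.04% for ZNF710. ZNF365 and ZNF512 are less certain on this count, at 30.5% and 29.6%. Shared words need not come from fingers, since the search found 0 fingers in ZNF365. Both ZNF365 and ZNF512 are overlapped by another annotated gene on the same strand. The source of their shared words was not tested.

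Of 18 ZNF genes linked to corepressors or core transcription, 3 were higher, 3 lower and 12 not called. That is 33.3% called, against 55.9% of the tested genes. ZNF217, an oncogene product that works with CoREST and CtBP, rose, with 14.8 and 13.9 FPKM in M5 against 11.8 and 11.98 FPKM in PBS (log2 fold change 0.42, edgeR adjusted p = 1.75e-05). ZNF532, which joins ZMYND8, ZNF592 and ZNF687 in the chromatin-bound Z3 complex, fell, with 5.08 and 4.83 FPKM in M5 against 7.06 and 7.03 FPKM in PBS (log2 fold change −0.36). ZNF592 and ZNF687 had log2 fold changes of −0.01 and −0.15 and were not called. ZNF367 fell, with 10.1 and 10.4 FPKM in M5 against 14.6 and 15.4 FPKM in PBS (log2 fold change −0.40).

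ZNF503 and ZNF703 are the human NET-family proteins, known in striatal development and in luminal breast cancer. ZNF503 had 9.61 and 7.90 FPKM in M5 against 6.69 and 6.36 FPKM in PBS (log2 fold change 0.58, edgeR adjusted p = 0.000267). ZNF703 had 8.40 and 7.97 FPKM in M5 against 11.4 and 11.1 FPKM in PBS (log2 fold change −0.31, edgeR adjusted p = 0.00846). One of the pair thus rose and the other fell, and neither gene's groups overlapped. With each library left out in turn, ZNF503 stayed between 0.43 and 0.71 on the log2 scale and kept its call. ZNF703 stayed between −0.34 and −0.27, but its call did not hold in every one of these fits. ZNF281 had a log2 fold change of 0.26, called with TMM and not with library totals or TPM scaling, at 10.6 and 11.4 FPKM in M5 against 9.80 and 10.6 FPKM in PBS, and its relative ZNF148, which binds the same kind of GC-rich site, had −0.06 and was not called. ZNF143 and ZNF76, activators that read a shared promoter element, had 0.18 and −0.04 and were not called. These pairs were chosen for their relatedness after values were seen.

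Of 13 ZNF genes listed under RNA, ribosome or translation, 2 were higher and 3 lower. That is 38.5% called, against 55.9% of the tested genes. One of the higher genes, ZNF451, is a SUMO ligase, so the count does not describe RNA genes alone. It had 2.98 and 3.33 FPKM in M5 against 2.87 and 2.69 FPKM in PBS (log2 fold change 0.33), a call lost with library totals (edgeR adjusted p = 0.0661) and TPM scaling (0.117). ZNF318, which in mouse B cells controls the choice between IgM and IgD transcripts, fell, with 7.11 and 7.53 FPKM in M5 against 10.1 and 10.2 FPKM in PBS (log2 fold change −0.32). ZNF830, a spliceosome-associated protein, had a log2 fold change of −0.31, which was not called without M5 replicate 2 (edgeR adjusted p = 0.0738) or PBS replicate 1 (0.148).

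None of the 4 genes used from the list of KRAB proteins of transposon or imprint silencing was called by edgeR. The most abundant of them was ZNF317, with 8.89 and 8.71 FPKM in M5 against 9.16 and 9.01 FPKM in PBS and a log2 fold change of 0.10 with TMM that was −0.05 with library totals. Of 8 genes listed as epithelial, stress-related or cytoskeletal, 4 were higher (ZNF165, ZNF267, ZNF697 and ZNF114, the last included through its M5 level) and 2 lower (ZNF365 and ZNF395), where 28.8% of the tested genes were higher and 27.1% lower. The higher genes of this list numbered 3 with library totals and 2 with TPM scaling, and the lower ones 2 with each. The call of ZNF267 did not hold with all 3 scalings, nor in every fit with 1 library left out.

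Of 21 tested genes of the corepressor complex 11 were lower and 1, GATAD2A, was higher. Together 57.1% of the list was called, near the 55.9% of the tested genes, of which 27.1% were lower and 28.8% higher. The median log2 fold change of the list was −0.24, beside −0.01 over the tested genes. TRIM28, the KRAB-binding corepressor, had 135 and 132 FPKM in M5 against 178 and 171 FPKM in PBS (log2 fold change −0.24, edgeR adjusted p = 0.000701). SETDB1, its methyltransferase, had 4.48 and 4.06 FPKM in M5 against 5.83 and 6.21 FPKM in PBS, a log2 fold change of −0.34. CBX5, which encodes HP1α, fell most, with 5.91 and 5.71 FPKM in M5 against 14.9 and 15.1 FPKM in PBS (log2 fold change −1.21, edgeR adjusted p = 1.72e-12). UHRF1 and DNMT1, which copy DNA methylation after replication, had −0.54 and −0.40, and CHD3, a NuRD remodeller, had −0.43. GATAD2A was not called with TPM scaling. GATAD2A, TRIM28, SETDB1 and DNMT1 were chosen for naming after their values were seen.

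Of 15 genes of H3K9 methylation and heterochromatin 2 were higher and 5 lower. The largest falls were LMNB1 at −1.02, LBR at −0.64 and SUV39H1 at −0.57 on the log2 fold scale. The 2 higher genes were the demethylases KDM4B (0.52) and KDM3A (0.48), which were also called higher with library totals and TPM scaling. Of 9 genes of CoREST, CtBP and Z3, 2 were higher and 2 lower, and the demethylase KDM1A fell to 8.58 and 8.83 FPKM in M5, against 21.8 and 21.0 FPKM in PBS (log2 fold change −1.15), while ZMYND8 and CTBP2 had 0.60 and 0.40. Of 5 HUSH genes, MORC2 (0.18) and PPHLN1 (0.17) were called higher with TMM, while with TPM scaling MORC2 was at −0.0035 and PPHLN1 at −0.010. The call of MORC2 was lost without M5 replicate 1 (edgeR adjusted p = 0.191) and without PBS replicate 1 (0.469), and that of PPHLN1 without M5 replicate 2 (0.0874), PBS replicate 1 (0.299) and PBS replicate 2 (0.0554). Of 12 other zinc finger repressors and relatives 4 were higher and 4 lower, with TRIM24 at −0.43, BCL6 at 0.48 and IKZF2 at 0.39. The call of TRIM24 was lost without PBS replicate 1 (edgeR adjusted p = 0.119), that of BCL6 without PBS replicate 2 (0.0814) and that of IKZF2 without M5 replicate 1 (0.0513). BCL6 and IKZF2 were not called with library totals or TPM scaling.

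Zinc finger genes named otherwise behaved as follows. Of 28 tested ZBTB genes 7 were higher and 6 lower, of 13 ZFP genes 3 were higher and 4 lower, and of 10 ZSCAN genes 0 were higher and 2 lower, where 55.9% of the tested genes were called. The ZBTB counts depended on the scaling, with 2 higher and 8 lower with library totals and 1 higher and 10 lower with TPM scaling. Both ZSCAN calls were lost on leaving out a library. ZSCAN26 went with M5 replicate 1 (edgeR adjusted p = 0.293), and ZSCAN25 with M5 replicate 2 (0.160), PBS replicate 1 (0.0964) or PBS replicate 2 (0.0965). Of the ZFP calls, ZFP3 was lost without M5 replicate 1 (0.0622), M5 replicate 2 (0.0510) or PBS replicate 1 (0.242). The 3 higher ZFP genes were ZFP36 and its namesakes ZFP36L1 (log2 fold change 0.34) and ZFP36L2 (0.19). No ZFP gene outside this name was called higher, so the ZFP count does not show other ZFP genes moving both ways. ZFP36, a CCCH-type zinc finger protein that speeds decay of cytokine messenger RNAs, had 13.4 and 14.7 FPKM in M5 against 7.74 and 5.56 FPKM in PBS, with a log2 fold change of 1.23 (edgeR adjusted p = 3.32e-07). ZFP42 (REX1), known from pluripotent cells, had 0.893 and 1.11 FPKM in M5 against 2.62 and 2.54 FPKM in PBS, a log2 fold change of −1.21. Of the 54 numbered ZNF genes with 1 to 1.5 FPKM, 1 was higher and 8 lower, with ZNF169 at −1.07, ZNF331 at −1.02 and ZNF227 at −0.93 on the log2 fold scale. In each of these named genes both M5 libraries were under 1 FPKM, the level for testing, so they were tested through PBS, where they are higher. Genes this near that level can pass through M5 or PBS alone, so these calls carry no weight as a result about the family.

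Promoter sequence from RefSeq (GRCh38.p14), 250 bases before and 50 after the start, was at hand for 153 of the 178 genes. The ETS-type letters CCGGAAG on either strand stood in 39.2% of these, in 21.1% of the promoters of tested genes and in 10.7% of the 27305 promoters in the table. The GC box letters GGGCGG stood in 70.6% of ZNF promoters and 72.0% of those of tested genes. TATAAA stood in 1.31% and 5.41%, and the cyclic AMP response element TGACGTCA in 5.88% and 3.40%. The AP-1 letters TGANTCA stood in 4.58% and 4.64%, the STAT letters TTCNNNGAA in 7.19% and 6.13%, and the NF-kB site, searched by its consensus, in 13.7% and 12.9%. By call, the ETS letters were found in 6 of 19 higher, 11 of 29 lower and 43 of 105 uncalled ZNF genes, and the NF-kB site in 3 of 19, 6 of 29 and 12 of 105. The letters describe these windows and do not show binding.

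The promoters of ZNF319 and ZNF362, both among the genes that changed at least 2-fold, show how these letters lie, with matches in capitals, read along the gene's strand and ending at the base before the start. That of ZNF319 is chr16:58000673-58000922 (−) and that of ZNF362 is chr1:33256242-33256491 (+).
ZNF319: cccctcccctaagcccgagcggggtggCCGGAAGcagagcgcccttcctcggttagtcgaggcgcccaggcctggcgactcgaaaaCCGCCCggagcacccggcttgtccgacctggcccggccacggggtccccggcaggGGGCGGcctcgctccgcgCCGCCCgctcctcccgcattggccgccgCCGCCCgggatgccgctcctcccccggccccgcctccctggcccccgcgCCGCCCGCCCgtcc
ZNF362: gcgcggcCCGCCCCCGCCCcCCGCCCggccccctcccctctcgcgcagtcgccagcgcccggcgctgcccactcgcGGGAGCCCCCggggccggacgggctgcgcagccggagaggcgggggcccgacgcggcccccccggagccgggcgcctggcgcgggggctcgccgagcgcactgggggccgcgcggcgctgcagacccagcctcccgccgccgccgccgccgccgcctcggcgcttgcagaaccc
ZNF319 holds the ETS letters 223 bases before the start and 6 GC boxes, the last of them 10 bases before the start and overlapping the one at 14. ZNF362 holds 3 GC boxes between 243 and 230 bases before the start and an NF-kB match at 174.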

How the data were processed

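Polyadenylated RNA of 4 HaCaT libraries was sequenced. Per the file headers, each deposited table holds a read count and an FPKM value for every gene. Tools listed are HTSeq 0.13.5, HISAT2 and the build GRCh38, per the submitters' processing notes, with no roles. The sources used here give neither a HISAT2 version nor the annotation release, strand setting or handling of multiply aligned reads.

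Deposited counts of the 10809 genes that averaged at least 1 FPKM were fitted with edgeR 4.0.16 (R 4.3.3; TMM, quasi-likelihood test, two-sided, Benjamini-Hochberg over those genes, threshold 0.05). The SE is the log2 fold change over the square root of F. No replicate block was used. Alternatives were limma 3.58.1 on log2(FPKM + pseudocount), DESeq2 1.42.0, other scalings, filters and thresholds, a replicate block and leaving out each library. On simulated data of these 10809 genes the fit recovered 46% of 1.25-fold, 80% of 1.5-fold, 92% of 2-fold and 100% of 4-fold changes, and 3.64% of calls were false. Only 200 genes were changed there, 50 at each size, with as many up as down, whereas 55.9% of genes were called in the data. These shares describe the simulated setting and do not give the recovery or false share of the real fit.

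The genes and lists were chosen with earlier results of these data known. Named were the 10 largest called rises and falls without overlap in FPKM and with one direction under 3 scalings, the 6 most abundant genes, up to 3 called genes of each list, the genes beside the inclusion level and the called genes with the most and fewest fingers. KRAB boxes, SCAN boxes and fingers were found by pattern searches in translated GENCODE 29 coding sequences, in place of the RefSeq proteins planned, and diverged KRAB boxes count as absent.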

Additional observations from a re-analysis of the deposited data

How the results depend on the processing

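The count of ZNF genes higher in M5, 23, was 9 with limma on log2(FPKM + 1), on log2(FPKM + 0.1) and on log2(FPKM + 0.5), 10 with library totals, 9 with TPM scaling, 12 among genes averaging at least 5 FPKM, 15 at an adjusted p under 0.01 and 7 among genes that overlap no other gene. The count of lower genes, 33, was 56 with limma at each of the 3 pseudocounts, 19 with DESeq2, 63 with library totals, 71 with TPM scaling, 17 without a filter on low values, 20 at 5 FPKM or more, 16 at an adjusted p under 0.01, 20 among ZNF genes of at least 3 FPKM and 10 among those that overlap no other gene. Leaving out each library in turn gave 16 to 25 higher and 17 to 31 lower genes, with 17 lower without PBS replicate 1, and medians from −0.040 to −0.016. The median log2 fold change, −0.04, was −0.15, −0.18 and −0.17 with limma at pseudocounts of 1, 0.1 and 0.5, −0.19 with library totals, −0.22 with TPM scaling, −0.011 without a filter and −0.085 at 5 FPKM or more. Limma on FPKM, library totals and TPM scaling lack the TMM factors, so their fold changes lie lower by construction, and settings with a higher level or no overlap count fewer genes. For the other settings the cause was not tested. Same-numbered replicates did not deviate together (correlation −0.02), which with 2 libraries a group cannot exclude that they were paired. With the replicate block 23 were higher and 34 lower, with 55 of the 56 called again.

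No called ZNF gene changed sign under an alternative, and 36 of 56 were called again with DESeq2 and 36 without a filter. ZNF317, not called, was at −0.042, −0.046 and −0.044 with limma (pseudocounts 1, 0.1 and 0.5), −0.046 with library totals and −0.076 with TPM scaling. With TPM scaling ZNF160 was at −0.016, MORC2 at −0.0035 and PPHLN1 at −0.010. KRAB genes called higher ranged from 1 to 7 and lower from 3 to 23, and chromosome 19 genes from 2 to 7 and 2 to 15. Corepressor genes called lower ranged from 9 to 16. There are 2 libraries a group, which limits the precision of each value.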
